A study of Mus musculus with 8 samples.

Results

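Axon guidance genes were examined in the hippocampus of adult mice that lack most of the dentate gyrus (DG). The genes were chosen by their symbols alone and comprised the Eph receptors and ephrins, the semaphorins of classes 3 to 7 with the plexins and neuropilins, the Slits with Robo1, Robo2 and Robo4, and the netrins with Dcc and the Unc5 receptors. The rule found 70 genes among the 46517 of the bulk files, and the same 70 among the 24051 of the nuclear files. Of these, 67 code for protein and 3 (Plxna4os1, Plxna4os2 and Plxna4os3) are antisense transcripts of the Plxna4 locus whose names also match. Mutant mice were Gfap-Cre;Wlsfl/- and control mice Gfap-Cre;Wlsfl/+. All of them thus carry Cre under the Gfap promoter, which acts in a subset of neural progenitors, and a floxed copy of Wls, whose product carries Wnt proteins to the cell surface. The mutants have no other functional copy and the controls have 1. Bulk RNAseq (2 mice per genotype, 1 library per mouse) and single nucleus (sn)RNAseq (2 mice per genotype) were made from both hippocampi of single mice.

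Guidance ligands steer growing axons and remain expressed at adult synapses. Ephrins, which are tethered to the membrane, bind Eph receptor kinases on neighbouring cells, and both sides can signal. Semaphorins bind plexins, and secreted class 3 semaphorins mostly need a neuropilin as co-receptor. Slits repel axons through Robos, whereas netrins attract through Dcc and repel through Unc5 receptors. In the hippocampus these families are known for their part in the layering of inputs and in the growth and pruning of mossy fibers, the axons of dentate granule cells (DGCs).

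Expected counts per bulk library ranged from 56002381 to 79576196, and the nuclear samples held 5304 to 10460 nuclei and 26307081 to 76486132 UMIs (unique transcript molecules). DGCs were 1.70% and 4.43% of nuclei in mutant replicates 1 and 2 and 36.1% and 27.9% in control replicates 1 and 2. Wls stood at 3.67 and 6.86 CPM (counts scaled to a common library size) in the mutant and 13.2 and 13.0 CPM in the control bulk libraries (log2 fold change -1.31, FDR 0.117). All mice are labelled male, but both replicate 2 bulk libraries had Xist at 230.1 and 518 CPM and Ddx3y below 0.4 CPM, so that in bulk RNAseq the pattern of these sex-linked transcripts goes with the replicate number and not with genotype. The 10 choroid plexus markers summed to 1208 and 8496 CPM in mutant replicates 1 and 2 and to 320.0 and 203 CPM in the controls, and the 3 DGC markers (Prox1, Dsp and C1ql2) to 48.3 and 36.2 CPM against 295 and 309 CPM. Of the 18 cell types tested in nuclei, 2 go against their deposited neuronal label: inhibitory neurons 14 held the inhibitory markers (Gad1, Gad2 and Erbb4) at 109.6 to 455 UMIs scaled to a common total, beside 3903 to 13777 in the other inhibitory clusters, with 7 meninges and fibroblast markers at 1442 to 2483 and 6 endothelium and pericyte markers at 1978 to 2639. Excitatory neurons 19 held the excitatory markers (Slc17a7, Nrn1 and Neurod2) at 21.0 to 124, beside 322 to 551 in the other excitatory clusters, with the meninges and fibroblast markers at 379 to 1260.2. These 2 clusters also held astrocyte markers (Aqp4, Slc1a3 and Gja1), at 995 to 1598 in number 14 and 435 to 1046 in number 19. Neocortex layer markers summed to 489 to 954 and 613 to 1153. They are called clusters 14 and 19 below. On the same scale, the mossy cell markers (Calb2, Drd2 and Sv2b) summed to 314 and 347 in control mossy cells. In control CA3 they summed to 418 and 440.1, and in control CA2 to 492 and 472. This list thus did not set mossy cells apart from these types, and the deposited label was kept. Between 8 and 21 cell barcodes were shared by any pair of nuclear samples.

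Promoters are shown for some of the genes on which the comparisons below turn. These are Sema5a, the semaphorin with the largest fall in tissue, and Sema6d and Ntn5, which changed in DGC nuclei in opposite directions. For Plxna4, Unc5d and Dcc no promoter window was available. The stretches shown are RefSeq sequences upstream of the annotated start, restricted to bases outside exons. Capitals mark CTTTGA or CTTTGT, the core recognised by TCF/LEF factors of the Wnt pathway, and the E-boxes CAGCTG and CACGTG, on either strand.
Sema5a promoter (GRCm38.p6, chr15:32244663-32244809, plus strand): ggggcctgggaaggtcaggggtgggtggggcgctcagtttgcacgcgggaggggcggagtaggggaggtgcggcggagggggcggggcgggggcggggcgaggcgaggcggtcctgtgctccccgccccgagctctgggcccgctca
Sema6d promoter (GRCm38.p6, chr2:124089719-124089968, plus strand): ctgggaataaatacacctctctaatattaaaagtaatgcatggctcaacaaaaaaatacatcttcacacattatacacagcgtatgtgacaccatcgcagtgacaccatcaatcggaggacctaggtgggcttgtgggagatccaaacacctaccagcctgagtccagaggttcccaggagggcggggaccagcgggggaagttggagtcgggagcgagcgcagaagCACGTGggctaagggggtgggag
Ntn5 promoter (GRCm38.p6, chr7:45683772-45684021, plus strand): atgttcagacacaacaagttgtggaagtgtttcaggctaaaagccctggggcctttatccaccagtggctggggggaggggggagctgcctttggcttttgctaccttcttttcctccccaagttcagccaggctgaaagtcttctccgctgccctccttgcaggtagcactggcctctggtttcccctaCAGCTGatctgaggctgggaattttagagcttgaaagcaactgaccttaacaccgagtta
No motif lay in the Sema5a stretch, CACGTG lay in that of Sema6d and CAGCTG in that of Ntn5. Among 73 promoter windows of 57 matched members, 5.48% held CTTTGA, 9.59% CTTTGT, 16.4% CAGCTG and 5.48% CACGTG, beside 13.8%, 16.5%, 13.0% and 6.02% of all 32851 windows of 250 bases. The motifs were chosen after these windows had been looked at.

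Levels of the families in tissue were compared per transcript length, as TPM (the deposited values, relative to all transcripts of a library) averaged over the 4 bulk libraries. The median member stood at 14.7 TPM, 42 of the 70 exceeded 10 TPM and 7 were under 1 TPM. Among receptors, the Eph kinase Epha4 was highest at 203 TPM, with 197 and 184 TPM in the mutants and 217 and 212 TPM in the controls, and Epha7 stood between 87.9 and 156 TPM. Plxna1, a semaphorin receptor, ranged from 61.9 to 95.2 TPM, Unc5a from 65.7 to 83.6 TPM, Nrp1 from 45.6 to 56.5 TPM and Robo2 from 46.2 to 53.0 TPM. Among ligands, Slit1 ranged from 92.9 to 124 TPM, the membrane-bound Sema6b from 77.1 to 80.6 TPM, Efnb3 from 55.7 to 81.1 TPM and Sema7a from 60.7 to 71.6 TPM. Netrins were low, with Ntn5 and Ntn4 highest at means of 5.77 and 5.61 TPM.

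snRNAseq resolved which cells hold these transcripts. Nuclear levels are given as UPM, UMIs scaled to a common total over the summed nuclei of a sample and cell type, and 18 of the 21 deposited cell types had at least 10 nuclei in every sample. Of the 70 genes, 56 reached 20 UPM in control nuclei of their highest type among these 18. The semaphorin receptor Plxna4, the Eph receptor Epha7, the ligands Slit3 and Sema5a and the netrin receptor Unc5a were highest in DGCs in both controls. Slit3 stood at 1800.2 and 1864 UPM there, Plxna4 at 1042 and 1155 UPM, Epha7 at 925 and 725 UPM, Sema5a at 498 and 444 UPM, and Unc5a at 61.0 and 64.9 UPM. The lower DGC value of Epha7 did not exceed the higher value of mossy cells, the next type, whereas for the other 4 the ranges of the 2 types were apart. Since the cell types were clustered on these transcripts too, their order is a description.

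Glial cells held 3 members that exceeded every other type at least 3 times. Efnb3, an ephrin, stood at 216 UPM in oligodendrocytes and 48.1 UPM in the next type, DGCs. Plxnb3 stood at 243 UPM in oligodendrocytes and 61.8 UPM in their precursors (OPC), and Plxnb1 at 131 UPM in astrocytes and 38.2 UPM in oligodendrocytes, each the mean of the 2 controls. Taking each gene in its highest type, the largest mean levels were those of Epha6 in CA1 (5741 UPM), Dcc in excitatory neurons 10 (3133 UPM) and Unc5c in inhibitory neurons 12 (3093 UPM).

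**Figure D1:**
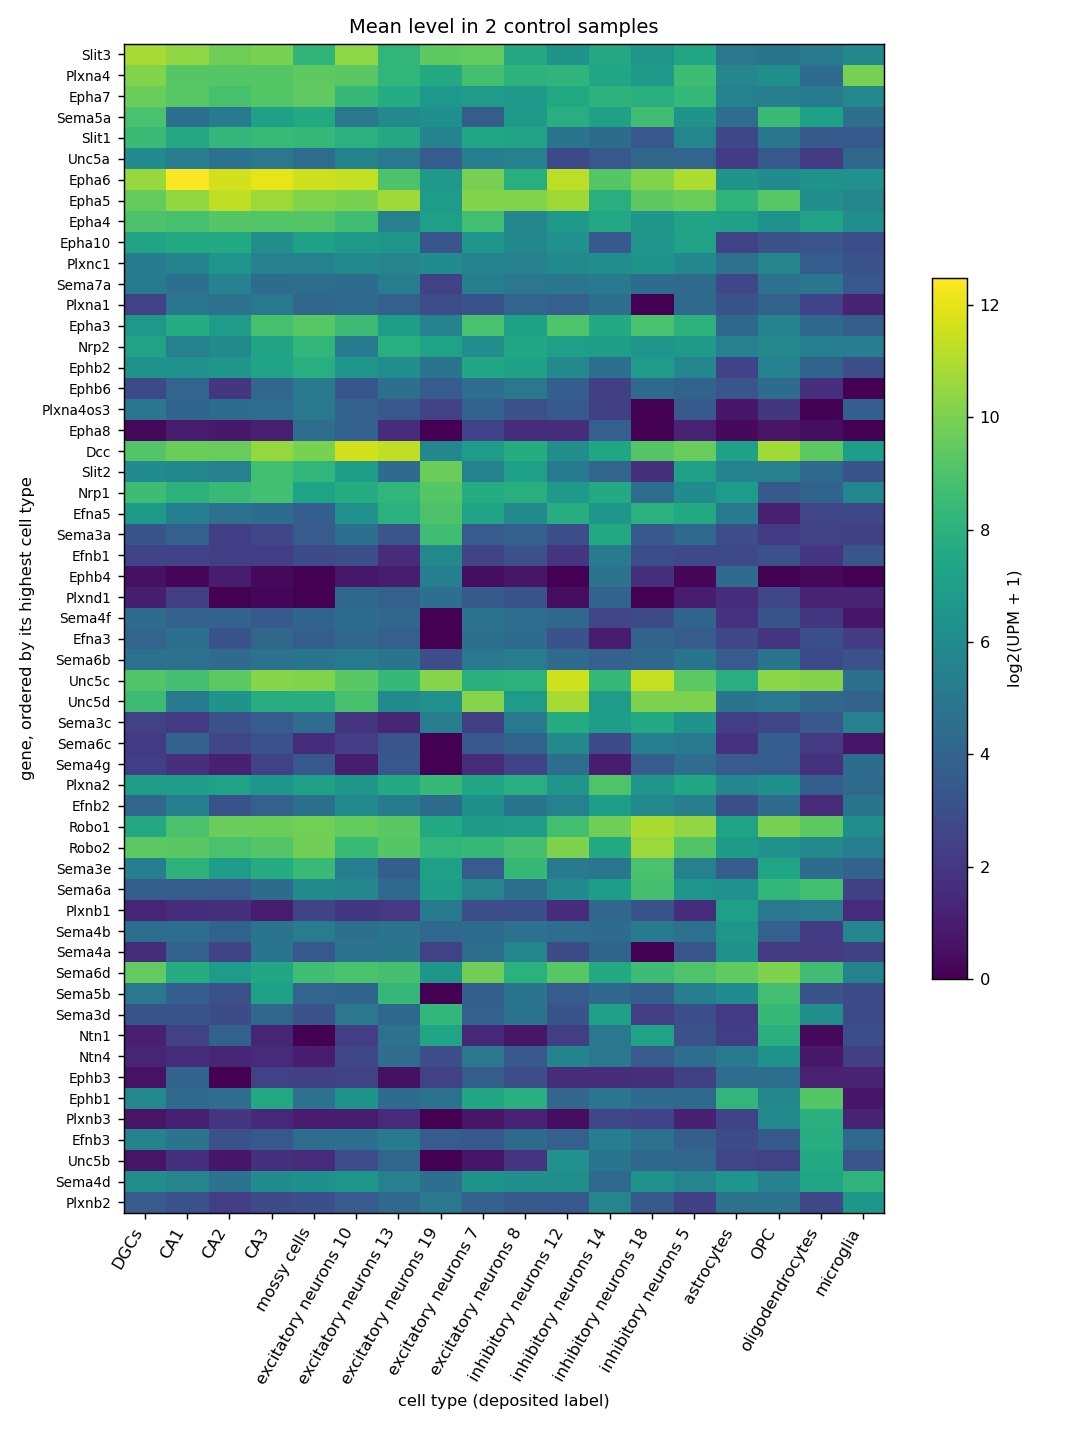
Mean level of 56 guidance genes in control nuclei of 18 cell types, as log2(UPM + 1) on the colour scale, for genes that reached 20 UPM in their highest type. Rows are ordered by the highest type: 6 genes lie highest in DGCs, led by Slit3, and Efnb3 and Plxnb3 are bright in oligodendrocytes.

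Comparing genotypes in bulk RNAseq asks which guidance transcripts of the tissue differ when DGCs are few. Semaphorin and plexin transcripts gave the calls: Sema5a fell to 29.8% of control, Sema5b to 54.9% and Plxna4 to 71.3%. At FDR below 0.05 (edgeR's quasi-likelihood test, adjusted by Benjamini-Hochberg over 20687 genes) these 3 of 68 members tested fell and 0 rose. Among all genes 1.21% passed in either direction and 1.01% fell. By DESeq2 13 of 65 members with an adjusted p passed, beside 9.53% of all genes. At the study's threshold of FC above 3, Sema5a alone passed, beside 0.218% of all genes. At an unadjusted p below 0.05 there were 25 members (15 lower and 10 higher), beside 18.8% of all genes. The median log2 fold change of the members was -0.05, and that of all genes 0.01. A bulk difference cannot tell fewer cells of a type from less RNA per cell.

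Sema5a (chromosome 15, 32244810 to 32696341 of mm10) encodes a transmembrane semaphorin. It stood at 71.9 and 54.4 CPM in mutant and 208 and 217 CPM in control replicates 1 and 2, without overlap (log2 fold change -1.75, SE 0.136, FDR 0.0206). Sema5b (chromosome 16, 35541145 to 35664732), its closest relative, stood at 14.3 and 13.9 CPM against 26.8 and 24.7 CPM (-0.87, SE 0.0906, FDR 0.0282). In control nuclei Sema5b was highest in OPC (mean 417 UPM), with 141 UPM in CA3 and 30.5 and 31.5 UPM in DGCs. Plxna4 (chromosome 6, 32144268 to 32588192) stood at 239 and 233 CPM against 327 and 335 CPM (-0.49, SE 0.0504, FDR 0.0282). All 3 kept their direction with each library left out. Without control replicate 1 their FDRs were 0.140, 0.244 and 0.207, and without control replicate 2 they were 0.234, 0.258 and 0.275.

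Other members stayed short of FDR 0.05 by this test. Epha7 was at 164 and 197 CPM in mutant and 246 and 259.9 CPM in control libraries (FDR 0.101). Among plexins and Eph receptors with higher values in both mutants, Plxna1 was at 252 and 280.0 against 191 and 200.4 CPM (FDR 0.0660), and Ephb6, an Eph receptor without kinase activity, at 69.9 and 66.4 against 55.3 and 56.4 CPM (FDR 0.0829). Both mutants lay on the same side of both controls in 41 of 68 members, 26 of them lower and 15 higher, beside 51.1% of all genes (25.4% lower and 25.8% higher). With more than 1.5-fold between the genotypes as well, there were 6 (Sema5a, Sema5b, Efna1, Ntn5, Ntn4 and Sema3b), beside 11.1% of all genes.

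Efna1, an ephrin, was at 2.35 and 2.34 CPM in mutants and 4.25 and 3.60 CPM in controls (FDR 0.124). Netrins moved apart: Ntn5 was at 3.11 and 1.65 against 6.96 and 5.62 CPM (log2 fold change -1.41, FDR 0.124), and Ntn4 at 11.8 and 13.1 against 7.26 and 6.81 CPM (0.82, FDR 0.0577). Sema3b, a secreted semaphorin, was at 3.60 and 12.3 CPM in mutant replicates 1 and 2 and 2.59 and 2.44 CPM in controls (1.67, FDR 0.216). Sema3f was at 2.51 and 8.89 against 2.68 and 1.40 CPM (FDR 0.299). Both were high in mutant replicate 2, the library with 8496 CPM of choroid plexus markers. All 10 of these markers were above both controls in mutant replicate 2 and also in mutant replicate 1, where they summed to 1208 CPM. The 7 meninges and fibroblast markers summed to 501 CPM in mutant replicate 2, with 2 of 7 above both controls. In the other libraries they summed to 126, 132 and 158 CPM. Among the 18 types tested, Sema3b was highest in control nuclei of cluster 14 (19.6 UPM), then of cluster 19 (11.3 UPM). Sema3f was highest in excitatory neurons 13 (14.7 UPM). Choroid plexus nuclei were too few in some samples to be among these types. The 9 of control replicate 1 held 2 UMIs of each gene among 59597. The 184 of mutant replicate 2 held 8 UMIs of Sema3b and 23 of Sema3f among 958320. Scaled as UPM, Sema3f thus stood higher in choroid plexus nuclei of both samples than in excitatory neurons 13. Sema3b stood above the control mean of cluster 14 in control replicate 1 and below it in mutant replicate 2. These levels rest on few UMIs. Without bulk mutant replicate 2 the log2 fold changes of Sema3b and Sema3f were 0.51 and 0.30. The part of choroid plexus or meninges RNA in these values was not tested.

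**Figure D2:**
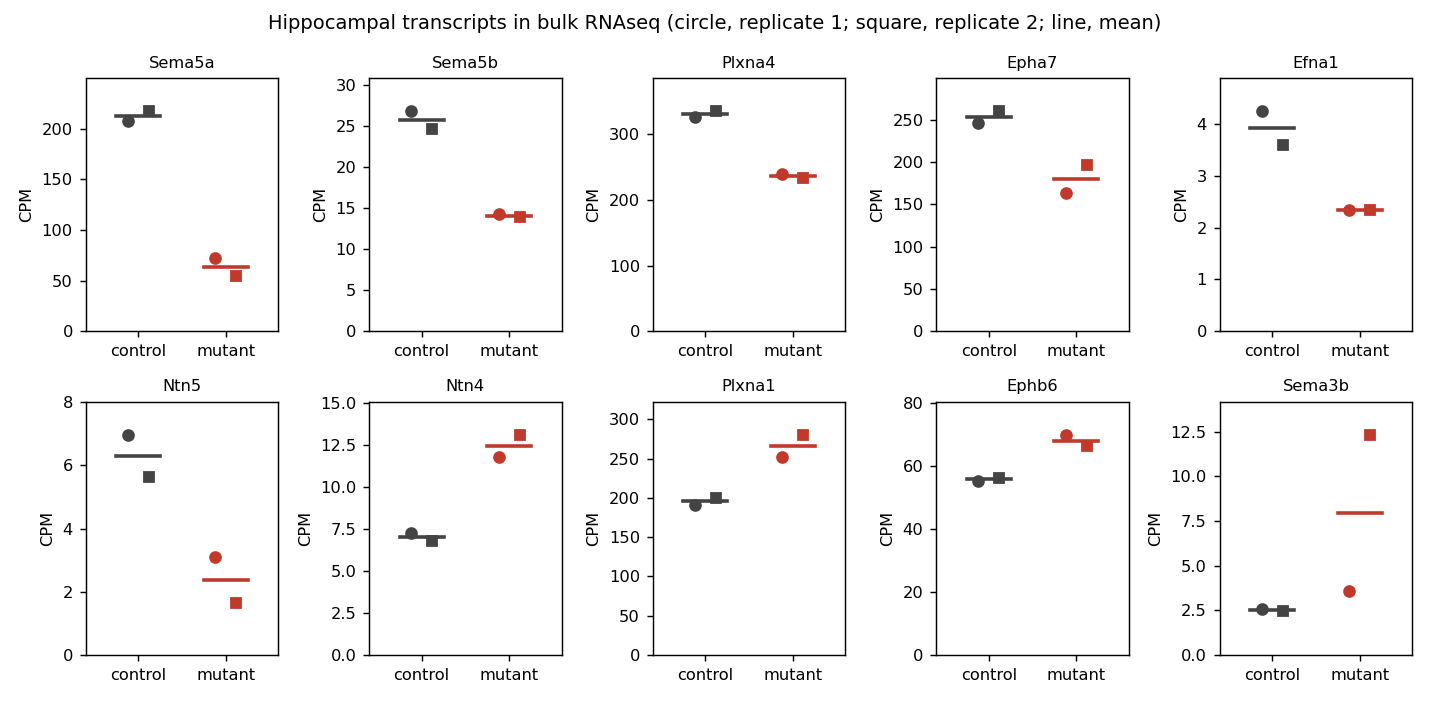
CPM of 10 guidance genes in the 4 bulk libraries (circles, replicate 1, and squares, replicate 2, with the mean as a line; linear axes from 0). Sema5a lies at 71.9 and 54.4 CPM in mutants and 208 and 217 CPM in controls, and Sema3b is high in mutant replicate 2 only.

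By family, 6 of 14 Eph receptors and 6 of 8 ephrins were lower in both mutants than in both controls, and 2 and 1 were higher, with medians of -0.07 and -0.19 on the log2 scale and 0 calls in each. The shares over all genes were 25.4% lower and 25.8% higher. Of 20 semaphorins 5 were lower and 8 higher (median 0.12), and of 10 plexins tested 2 were lower and 2 higher. Among Slits, Slit1 and Slit3 were lower and Slit2 overlapped. Nrp1 was at 138 and 133 against 157 and 154 CPM (FDR 0.136), Sema6d at 76.2 and 63.1 against 95.3 and 84.7 CPM (FDR 0.173) and Dcc at 10.1 and 4.79 against 9.57 and 11.3 CPM (FDR 0.515).

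Of the 5 members highest in DGCs of both controls, all 5 had a lower tissue level in mutants (median log2 fold change -0.49, 2 of them past FDR 0.05). Of all 257 genes with that pattern, 93.4% were lower, with a median of -0.34. The 63 other tested members had a median of -0.03. Slit1, whose highest mean was also in DGCs, was at 251 and 247 against 313 and 287 CPM (FDR 0.118).

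Within DGC nuclei the genotypes were compared on UMIs summed per mouse, which sets aside how many DGCs there are. Sema6d, a transmembrane semaphorin, fell to 0.495 of control, Ntn5 rose 3.14-fold and Dcc, the netrin receptor, rose 1.69-fold. Of 58 members tested, 2 passed FC above 2 and FDR below 0.05 (1.47% of all 15003 genes) and 3 passed FDR at any fold change (1.77% of genes). The mutant samples held 90 and 463 DGC nuclei and the controls 2336 and 2007.

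Sema6d stood at 326 and 368 UPM in mutant and 736 and 684 UPM in control DGCs (log2 fold change -1.01, SE 0.152, FDR 0.0149). Ntn5 stood at 29.0 and 30.9 against 10.6 and 8.98 UPM (1.65, SE 0.248, FDR 0.0149), from 12 and 106 UMIs in the mutants. Dcc stood at 903 and 973 against 593 and 526 UPM (0.75, SE 0.145, FDR 0.0373). For all 3 the groups were apart. Without mutant replicate 1 the FDRs of Sema6d, Ntn5 and Dcc were 0.140, 0.0823 and 0.150, and without mutant replicate 2 they were 0.392, 0.422 and 0.425. Ntn5 thus rose in DGC nuclei while its tissue level was lower in both mutants.

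The 5 genes highest in DGCs did not pass within DGC nuclei. Sema5a was at 333 and 361 against 498 and 444 UPM (FDR 0.219) and Epha7 at 592 and 445 against 925 and 725 UPM (FDR 0.0995). Plxna4 was at 1294 and 1315 against 1042 and 1155 UPM (FDR 0.403), Slit3 at 2306 and 2570.4 against 1800.2 and 1864 UPM (FDR 0.168) and Unc5a at 77.3 and 77.9 against 61.0 and 64.9 UPM (FDR 0.417). The last 3 were thus higher per UMI in mutant DGCs and lower in mutant tissue. Epha5 was at 473 and 385 against 867 and 639 UPM (FDR 0.0607).

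The remaining DGCs of mutants differ in their mix. Nuclei with a UMI of Trhr and none of Lct, genes the study places in ventral and dorsal DGCs, were 20.0% and 29.8% of mutant and 2.61% and 4.09% of control DGCs. Within control mice, Trhr nuclei had Sema6d at 0.660 and 0.612 times the level of Lct nuclei, Epha5 at 0.640 and 0.620 times and Ntn5 at 2.82 and 2.94 times. Dcc stood at 745 and 793 UPM in Trhr nuclei and 498 and 479.5 UPM in Lct nuclei of control replicates 1 and 2. Each of these 4 thus differed between Trhr and Lct nuclei in the direction in which mutant DGCs differed from controls. Among Trhr nuclei alone (18 and 138 mutant, 61 and 82 control nuclei) the log2 fold changes were -0.34 for Sema6d, 0.94 for Ntn5, 0.51 for Dcc and -0.48 for Epha5, and 0 of 38 members passed FDR 0.05 by edgeR. Nor did any of the 7854 genes tested in these few nuclei, so that this count says nothing of the members. An unadjusted p below 0.05 was reached by 5 members and by 7.54% of all genes. Selecting on a UMI favours deeper nuclei, and this split was added after the values above were seen. What the mix contributes was not tested.

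Mossy cells, the excitatory neurons of the DG hilus, gave 1 further call. Nrp1, the semaphorin co-receptor, rose 2.59-fold, with 369.8 and 407 UPM in mutant and 105 and 199 UPM in control samples (log2 fold change 1.37, SE 0.280, FDR 0.0455). It was 1 of 35 members tested, beside 0.59% of all genes at FC above 2 and 0.604% at FDR alone. Its FDR was 0.0504 by DESeq2, 0.0824 and 0.351 without mutant replicates 1 and 2, and 0.0972 without control replicate 1. Slit3 (525 and 769.9 against 197 and 369 UPM, FDR 0.0594) and Unc5d (434 and 469 against 180.1 and 262 UPM, FDR 0.0676) were also higher in both mutants. The samples held 27 and 89 mutant and 38 and 32 control mossy nuclei. Marker content of these nuclei differed as well. Neocortex layer markers summed to 300.1 and 198 UPM in mutants against 107 and 65.1 UPM. Oligodendrocyte markers summed to 177 and 216 against 58.4 and 61.5 UPM. Mossy cell markers were lower in mutants (279 and 272 against 314 and 347 UPM), as were OPC markers (0 and 2.14 against 51.1 and 27.1 UPM). What this content adds to the values of Nrp1, Slit3 and Unc5d was not tested.

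In the other 16 types 0 members passed either threshold by edgeR, beside 0.0519% of all tests at FC above 2 and 0.055% at FDR alone. Over all 18 types, 117 of 767 tests of members had an unadjusted p below 0.05, beside 9.31% of the tests of all genes. By direction, 12 of these were higher and 7 lower in mutant DGCs, 11 and 6 in CA3 and 9 and 2 in CA2. In astrocytes 4 were higher and 4 lower, and in inhibitory neurons 18 it was 0 and 1. The median log2 fold change of the members lay between -0.15 (microglia) and 0.33 (CA2), and that of all genes between -0.04 and 0.05. In DGCs these medians were 0.21 and -0.01, and in cluster 19 -0.07 and 0.05. The 3 calls of members at FC above 2 stand beside 0.19% of all tests by edgeR. By DESeq2 there were 7 among 627 tests with an adjusted p, beside 0.253%. Sema5b in CA3 came closest, at 34.4 and 46.9 UPM in mutant and 155 and 127 UPM in control samples (-1.75, FDR 0.0531). In DGCs the same gene was at 36.2 and 46.1 against 30.5 and 31.5 UPM (0.50, FDR 0.274). Astrocytes had Ephb1 at 155 and 170.2 against 293 and 293 UPM (FDR 0.0768) and Efna5 at 17.2 and 12.3 against 41.1 and 30.1 UPM (FDR 0.0945). CA2 had Epha7 at 187 and 214 against 544 and 368 UPM (FDR 0.290), and inhibitory neurons 5 had Sema3c at 33.6 and 50.1 against 95.9 and 79.1 UPM (FDR 0.229).

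In the remaining types, the members of lowest p are given as values, none past FDR 0.05. Slit2, a secreted repellent, was at 96.1 and 84.7 against 49.8 and 62.0 UPM in CA1 and at 166 and 79.7 against 30.9 and 53.2 UPM in CA2. Both mutants were above both controls in each type. In OPC, Epha6 was at 94.7 and 113 against 82.0 and 52.3 UPM and Sema6d at 1395 and 1278 against 1154 and 997 UPM. In oligodendrocytes, Ephb2 was at 43.0 and 39.9 against 13.5 and 16.5 UPM and Unc5d at 28.7 and 44.8 against 11.2 and 23.9 UPM. All 4 were higher in both mutants. In microglia, with 13 nuclei in mutant replicate 1, Epha6 was at 186 and 133 against 93.6 and 63.8 UPM, and Dcc, whose groups overlap, at 186 and 42.3 against 193 and 50.0 UPM (FDR 1.000 for both).

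Among excitatory clusters, Nrp2 was at 285 and 376 against 199.8 and 256 UPM and Plxna4 at 359 and 469 against 266 and 335 UPM in number 13. Unc5c was at 375 and 425 against 256 and 265 UPM in number 8. In number 7, Dcc was at 211 and 146 against 105 and 133 UPM and Sema3f at 10.6 and 6.68 against 3.69 and 4.30 UPM (FDR 0.909 for both). These receptors and Sema3f were higher in both mutants. Among inhibitory clusters, Epha7 was at 106 and 97.6 against 206 and 171 UPM and Dcc at 83.2 and 136 against 58.3 and 82.6 UPM in number 12. Epha4 was at 98.7 and 115 against 161 and 153 UPM in number 5. In number 18, Ntn1 was at 81.9 and 50.6 against 186 and 103 UPM and Sema3e at 183 and 288 against 738 and 211 UPM. Of these 5, Dcc was higher in both mutants, Epha7, Epha4 and Ntn1 were lower, and the groups of Sema3e overlap.

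Clusters 14 and 19 are not read as neurons here. In cluster 14, Sema4d was at 51.6 and 42.3 against 17.1 and 20.0 UPM, from 4 to 36 UMIs, and Slit1 at 32.2 and 48.2 against 21.3 and 20.0 UPM. Robo4, a Robo of vessels, stood at a control mean of 14.4 UPM there, from 3 and 8 UMIs. In the next of the 18 types tested it stood at 0.195 UPM. The deposited type EC, outside these 18, held 3 Robo4 UMIs among 110072 in 9 nuclei of control replicate 2. In cluster 19, Robo1 was at 337 and 440.2 against 215 and 165 UPM and Ntn1 at 42.1 and 104 against 161 and 165 UPM, from 2 to 89 UMIs.

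**Figure D3:**
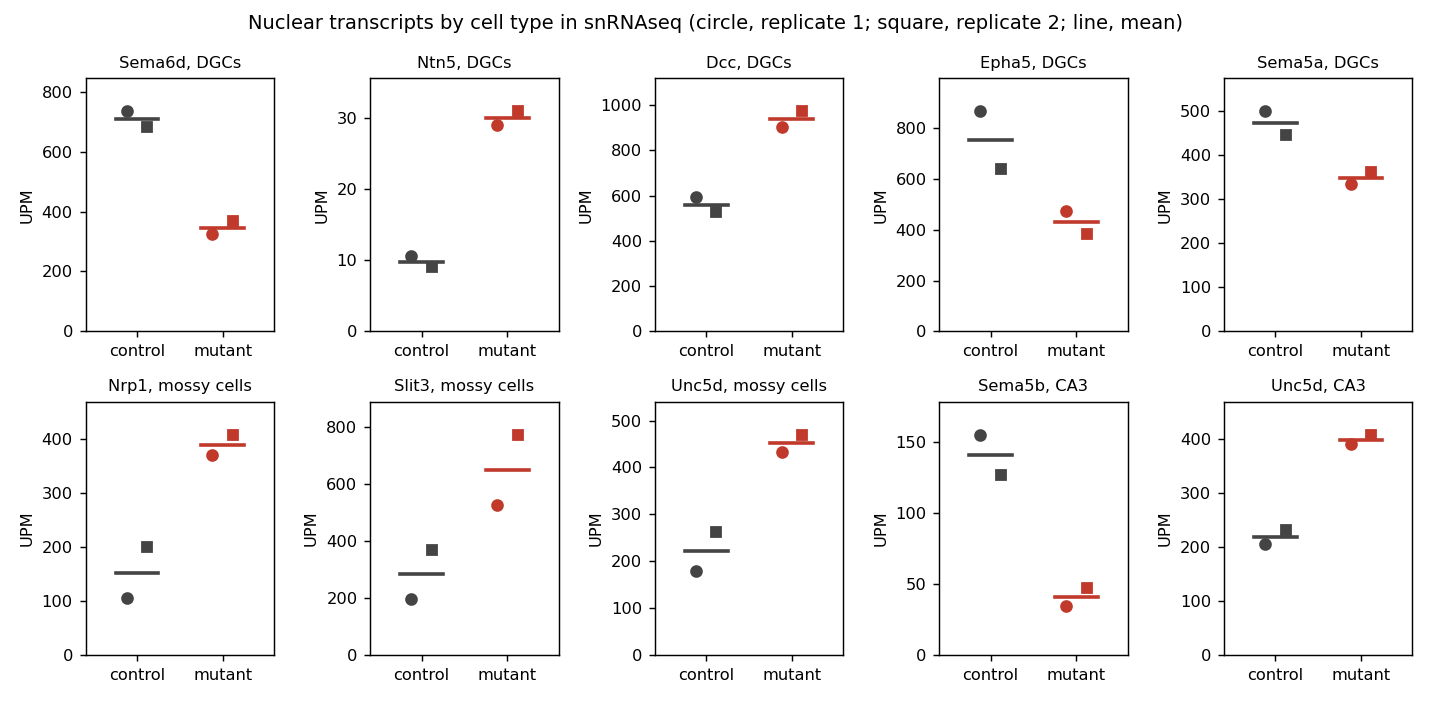
UPM of guidance genes in named cell types of the 4 nuclear samples (circles, replicate 1, and squares, replicate 2, with the mean as a line; linear axes from 0). In DGCs, Sema6d lies at 326 and 368 UPM in mutants and 736 and 684 UPM in controls, and Ntn5 at 29.0 and 30.9 against 10.6 and 8.98 UPM.

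RNA from other cells in the droplets can bear on low values outside DGCs and on values within them. Dsp, a DGC marker, stood in control CA1 nuclei at 4.92% and 4.31% of its DGC level and in mutant CA1 at 0.324% and 1.18%. Sema5a, which stood in control CA1 at 4.93% and 4.57% of its DGC level, was at 7.34 and 13.6 UPM in mutant against 24.6 and 20.3 UPM in control CA1 (FDR 0.421), and in excitatory neurons 10 at 7.71 and 10.5 against 30.3 and 30.5 UPM (FDR 0.232). Within DGC nuclei, CA3 markers summed to 350.1 and 510.0 UPM in mutants against 214 and 298 UPM in controls. Neocortex layer markers summed to 99.0 and 47.6 against 26.5 and 35.5 UPM. For choroid plexus markers the groups overlapped (24.1 and 84.7 against 56.5 and 36.3 UPM). The part of RNA from other cells in these differences, or in those of members within DGC nuclei, was not tested.

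The difference between genotypes was itself compared between DGCs and CA1 pyramidal nuclei, with sample as a block. Of 63 members 7 passed FDR 0.05, beside 2.52% of all 16987 genes. Unc5d, a netrin receptor, gave the lowest FDR (interaction -1.46, SE 0.157, FDR 2.1e-09): it was at 60.2 and 76.7 against 33.4 and 34.9 UPM in CA1 and at 191 and 345 against 433 and 334 UPM in DGCs. Sema6d (-0.96, FDR 7.4e-05) was at 261 and 170.3 against 241 and 182 UPM in CA1, where the groups overlap. Epha10 (0.73, FDR 0.00203) was at 107 and 139 against 207 and 170.4 UPM in CA1 and at 149.7 and 188 against 146 and 161 UPM in DGCs. Epha5 (-0.65), Efnb2 (0.91), Dcc (0.59) and Sema7a (-0.87) also passed. Unc5d alone passed in all 7 alternatives. The DGC and CA1 values come from the same 4 mice.

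**Figure D4:**
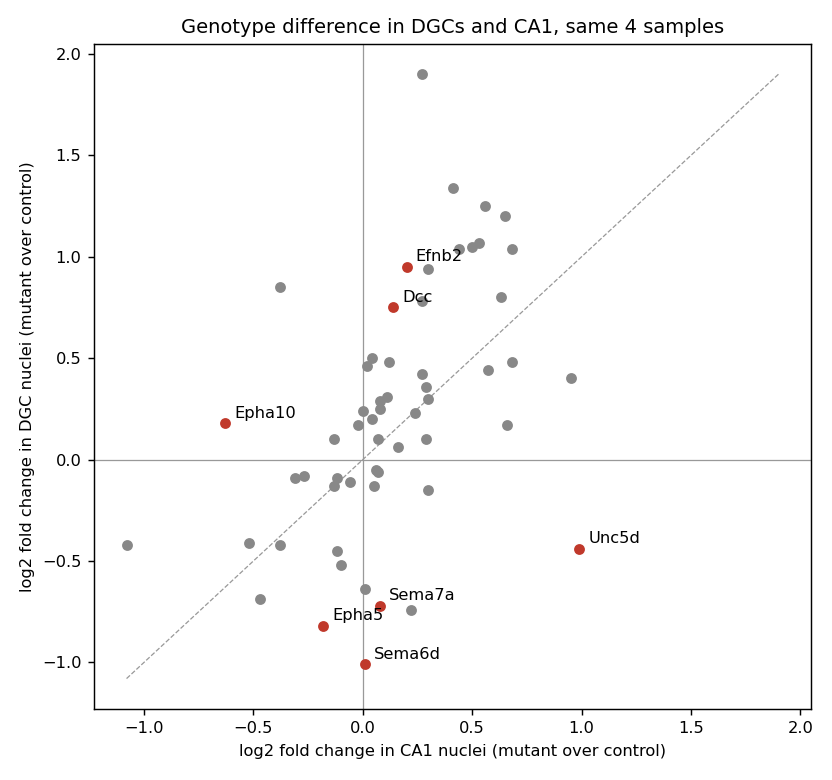
Log2 fold change (mutant over control) in DGC nuclei against that in CA1 nuclei for 57 guidance genes tested in both types, from the same 4 samples; the dashed line marks equal change. The 7 genes past FDR 0.05 in the test of the difference are red, with Unc5d at 0.99 in CA1 and -0.44 in DGCs.

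Across types, Unc5d was higher in both mutants than in both controls in 9 of the 16 types where it was tested and lower in both in 1, CA2. Among the tests of all genes over the 18 types, 18% were higher and 22.7% lower in this way. Its unadjusted p was below 0.05 in 7 types, all with higher mutant values, and its FDR reached 0.05 in none. In CA3 it stood at 390.1 and 407 against 206 and 232 UPM (0.89, FDR 0.154), in excitatory neurons 10 at 967 and 1234 against 504 and 433 UPM (1.28, FDR 0.155) and in excitatory neurons 8 at 232 and 313 against 96.5 and 143 UPM (1.23, FDR 0.378). Its highest type, inhibitory neurons 12, showed 2069.8 and 2101 against 1843 and 1793 UPM (0.24, FDR 0.643). In tissue it was at 31.6 and 24.6 against 32.3 and 35.2 CPM (-0.27, FDR 0.371). Such a pattern was not particular to Unc5d. Plxna4 was higher in both mutants in 10 of 18 types and lower in both in 0, beside its fall in tissue. Plxna2 was higher in 10 of 17 types and lower in 1, and Slit3 higher in 8 of 18 and lower in 0. In the other direction, Epha7 was lower in both mutants in 9 of 17 types and higher in 1. Sema5a was lower in 9 of 16 and higher in 2. The types share the same 4 mice and are not independent.

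**Figure D5:**
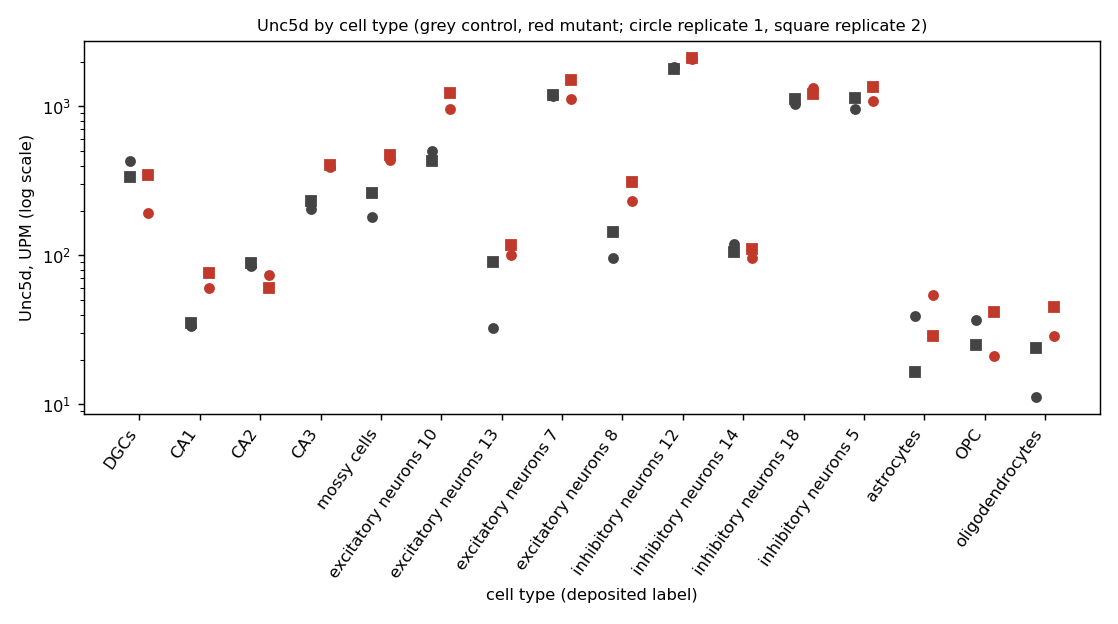
Unc5d level (UPM, log axis) in 16 cell types for 2 control (grey) and 2 mutant (red) samples. Mutant points lie above control points in 9 types, among them CA1, CA3 and mossy cells, and the groups overlap in 6, among them DGCs.

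Of 58 related guidance genes (co-receptors and intracellular partners), 2 fell in bulk RNAseq at FDR below 0.05 and 0 rose, beside 1.21% of all genes in either direction. Tiam1, an activator of Rac, was at 64.7 and 56.5 against 167 and 152 CPM (-1.40, FDR 0.0135), and Robo3, a divergent Robo receptor, at 22.5 and 24.3 against 41.8 and 37.1 CPM (-0.75, FDR 0.0408). In DGC nuclei 2 of 54 tested passed, beside 1.77% of all genes: Robo3 fell (4.83 and 7.59 against 31.4 and 39.3 UPM, -2.28, FDR 0.00877) and Farp1, a plexin partner, rose (65.2 and 76.2 against 32.0 and 24.5 UPM, 1.38, FDR 0.0151). In the other 17 types 0 of these genes passed by edgeR, beside 0.0789% of all tests.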

How the data were processed

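Bulk RNAseq and snRNAseq samples were grouped by the genotype and replicate in their labels. Per the labels, reads were processed against mm10 with RSEM 1.3.0, Bowtie2 2.2.9 and Cell Ranger 3.1.0. For bulk libraries the authors deposited expected counts and TPM per gene, and a matrix of signal, the expected count over 1 size factor per library. For nuclei the authors deposited UMI counts per gene and nucleus, with cell types. Gene positions came from GENCODE vM21 (GRCm38).

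Expected counts were rounded. Genotypes were compared with edgeR 4.0.16 (R 4.3.3), using filterByExpr, TMM and its quasi-likelihood test, adjusted by Benjamini-Hochberg over all genes tested. The study used other tests. Nuclei were summed per sample and deposited type, for types of 10 or more nuclei per sample, and the mouse was the replicate (2 per genotype). SE was derived from F. Alternatives used DESeq2 1.42.0, limma 3.58.1 on log2(value + 1), RLE, no filter, a replicate block, no nuclei above the 95th percentile of UMIs and each sample left out, the lone sample being assumed to vary like the others. The scripts were run first on simulated counts of 2 against 2 mice. Fold changes were recovered, but where the spread differed strongly between genes, more unchanged genes passed than the nominal FDR, so that calls close to 0.05 are less secure than that value states.

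Genes were named by rule: the 2 of highest TPM per family, those past FDR 0.05, those of lowest p in each comparison, those highest in DGCs of both controls or in 1 type by 3 times at 20 UPM or more, and those with bulk groups apart by over 1.5-fold. Epha6 and Unc5c in their highest types, Sema3f in bulk, Robo4 in cluster 14 and the further genes near FDR 0.05 were singled out after their values were seen. The members, lists and rule were chosen with earlier results of these data known. No nucleus was removed as a doublet here.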

Additional observations from a re-analysis of the deposited data

Results flagged for a closer look

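The genotype difference of 7 guidance genes differed between DGC and CA1 nuclei by a test of the difference itself (edgeR, adjusted by Benjamini-Hochberg over 16987 genes). As the log2 fold change in DGCs minus that in CA1, these were -1.46 for Unc5d, -0.96 for Sema6d, 0.73 for Epha10, -0.65 for Epha5, 0.91 for Efnb2, 0.59 for Dcc and -0.87 for Sema7a. Of the 7 alternatives run, Unc5d passed FDR 0.05 in 7, Sema6d in 6, Epha10, Epha5 and Efnb2 in 5 and Dcc and Sema7a in 4. The DGC values rest on 90 and 463 mutant nuclei.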

How the results depend on the processing

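With 2 mice per genotype, the counts of calls moved with single samples more than with the scaling. In bulk RNAseq the 1 member past FC 3 became 2 with no filter and 0 to 4 with each library left out (4 without mutant replicate 1). The 3 members past FDR 0.05 became 13 by DESeq2, 16 with no filter, 1 with the replicate block and 0 to 19 with each library left out (0 without either control, 19 without mutant replicate 1, 7 without mutant replicate 2). The median log2 fold change of -0.05 (-0.053 to 3 decimals) was -0.042 with no filter and between -0.048 and -0.043 with each library left out. In nuclei the 3 calls became 7 by DESeq2, 18 with no filter, 5 without the top 5% of nuclei, 19 with the replicate block and 4 to 30 with each sample left out (30 without control replicate 2, 8 without mutant replicate 1 and 7 without control replicate 1). Merging the excitatory and the inhibitory clusters, an alternative added after seeing the data, left 3. The 7 members of the interaction became 2 to 6 with each sample left out (4 without mutant replicate 1, 2 without mutant replicate 2 and 4 without control replicate 2). Why these counts moved was not tested. The deviations of same-numbered samples from their group means correlated at 0.0208 in bulk and at 0.0424 to 0.372 in the 18 nuclear types, and no label says that a number marks a shared litter or day, so the numbers were not used to pair the mice. In bulk RNAseq the replicate block also follows the Xist and Ddx3y pattern, which the main fit did not model. With this block, the bulk FDRs of Sema5b and Plxna4 were 0.0576 and 0.0583.

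Of 700 values of single members under an alternative, 571 kept their direction and side of FDR 0.05, 99 passed it anew, 21 lost it and 9 turned direction. The 9 came with 1 sample left out. With each library left out, the bulk log2 fold change of Epha10 lay between -0.21 and 0.03, that of Ntn1 between -0.02 and 0.16, that of Plxnb1 between -0.03 and 0.10, that of Plxnb3 between -0.14 and 0.29 (-0.05 without control replicate 2) and that of Sema3c between -0.10 and 0.16 (-0.00 without control replicate 1). In nuclei, Dcc in microglia lay between -1.89 and 0.72 and Sema3e in inhibitory neurons 18 between -1.53 and 0.27. None of these had passed FDR 0.05. The deposited types already number the clusters, so that summing by cluster number gave no further value. The 90 DGC nuclei of mutant replicate 1 limit the precision within DGCs.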
